A study of Brassica napus with 24 samples.

Results

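Among the 43603 probes of the array other than controls, 3 probes were followed over all groups of the study. A_46_P230784 is matched by the paper's annotation to AT3G28790, a protein with the domain of unknown function DUF1216. A_46_P141109 is matched to AT1G11770, an FAD-binding protein of the Berberine family, and A_46_P151224 to AT3G03341, an unknown protein. The 3 probes were chosen because their signals in anthers differed very strongly between treatments, so their anther values are given as a description without a test. That choice did not rest on Ls and SBs, and tests are given there. The 3 probes are also in the paper's list of changed transcripts, which drew on comparisons that included Ls and SBs. The tests there are therefore not fully independent of the selection.

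The samples came from field-grown rapeseed (Brassica napus), cultivar Zhongshuang No. 9, an inbred line. Plants at the bolting stage were sprayed on the leaves with 0.1 μg/mL monosulfuron ester sodium (MES), an inhibitor of acetolactate synthase that makes rapeseed male sterile, and about 15 mL was given per plant. Mock-treated plants received the carrier alone, and in both treatments the carrier was a solution of DMF (50 ppm) with Tween 80 (5 ppm). From each treatment the tissues (organs) were young leaves of the main inflorescence (Ls), buds below 1 mm (SBs), anthers from buds of 1 to 3 mm (An-MBs) and anthers from buds over 3 mm (An-LBs). Each of the 8 groups held 3 biological replicates, each a mixture from 20 rows of plants, on 24 one-colour arrays in all.

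SBs hold male cells up to the pollen mother cell stage, An-MBs reach from meiosis to early microspores, and An-LBs reach from vacuolated microspores to mature pollen. SBs are whole buds while An-MBs and An-LBs are dissected anthers, so stage and tissue change together from SBs to An-MBs. In flowering plants the tapetum, the innermost layer of the anther wall, feeds the microspores and supplies the outer pollen wall before it breaks down. Berberine bridge enzyme-like proteins are flavoenzymes, many of them secreted, that oxidise small substrates such as alkaloids, carbohydrates and cell wall building blocks in different plants. DUF1216 names a protein region whose molecular role is not known. These probes report transcripts of whole organs, so fewer cells of a type and less RNA per cell cannot be told apart.

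All levels below are normalized signals on the log2 scale, in which a difference of 1 is a doubling. Between 73.0% and 81.9% of the probes of an array were well above background, as the scanning software marks it, and no spot was saturated. A signal is called below background here where it was not so marked, whatever its size, and above background where it was. As a sum, pollen genes marked the mock-treated anthers. The summed signal of 9 pollen probes lay between 20.47 and 20.57 on the log2 scale in mock-treated An-LBs and between 15.20 and 17.50 in mock-treated An-MBs, against at most 9.08 in every Ls or SBs array. The summed signal of 7 photosynthetic probes was highest in Ls, at 19.23 to 19.59, although PSAO, one of the 7, was brightest in mock-treated An-LBs. All of these markers except 2 photosynthetic probes had been picked by the study as changed on these arrays. All mock-treated arrays were on slides 1 to 3 and the MES-treated ones on slides 4 to 7, so slide and treatment cannot be told apart. Arrays of an organ lay at the same position of their slides, apart from MES replicate 2 of An-LBs, so position and organ cannot be told apart either. That array was also read on another scanner and another date than all the others. The mock-treated arrays of replicate 1 had a scan date that no other array shared. MES replicate 2 of An-MBs stood apart from its group, with r of 0.945 and 0.954 to the other replicates against 0.989 between these.

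In mock-treated plants A_46_P230784 (AT3G28790) was highest in anthers, and this probe also had a clear signal in Ls and SBs. On the mock-treated arrays, Ls were at 9.67, 10.16 and 10.29 and SBs at 10.13, 8.56 and 8.44. The An-MBs arrays read 16.57, 16.54 and 17.81, and the An-LBs arrays 18.44, 18.29 and 18.49. The signal was well above background on all 24 arrays. Other probes of the match AT3G28790 were divided in mock-treated Ls and SBs. A_46_P132554, A_46_P151504 and A_46_P132584 were below background on all of these arrays. A_46_P132549 and A_46_P300230 were above it on all, and A_46_P309345 on 3 Ls and 2 SBs arrays. From SBs to An-MBs the mean level was 7.93 higher, which is 244-fold, and from An-MBs to An-LBs it was another 1.43 higher, or 2.70-fold, without overlap of the arrays at either step. The An-LBs replicates were also the closest together, with an SD of 0.10 against 0.72 in An-MBs and 0.94 in SBs.

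In MES-treated plants this stage profile was almost flat. Ls were at 7.97, 8.79 and 8.40 and SBs at 8.41, 8.11 and 8.26. The An-MBs arrays read 6.67, 8.66 and 7.43, and the An-LBs arrays 8.0, 7.79 and 10.36. Group means spanned 1.13 on the log2 scale in MES-treated plants and 9.36 in mock-treated plants. Each of the 4 MES groups overlapped with each of the others, so no order of stages can be read from them. The lowest mock-treated anther array, at 16.54, lay far above the highest MES-treated anther array, at 10.36.

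The MES difference of A_46_P230784 in An-MBs was -9.39, a 669-fold lower signal, with a gap of 7.88 between the nearest mock and MES arrays. In An-LBs it was -9.69, or 824-fold lower, with a gap of 7.93. Without MES replicate 3, the highest of its group, the difference in An-LBs was -10.51. For 32.4% of all probes tested, the 2 groups of An-MBs did not overlap, and for An-LBs this share was 56.3%, while 7.1% and 29.2% of the probes were called changed. Called means here that limma gave a p, adjusted by Benjamini-Hochberg over all probes tested, under 0.05 and a difference of 2-fold or more.

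**Figure D1:**
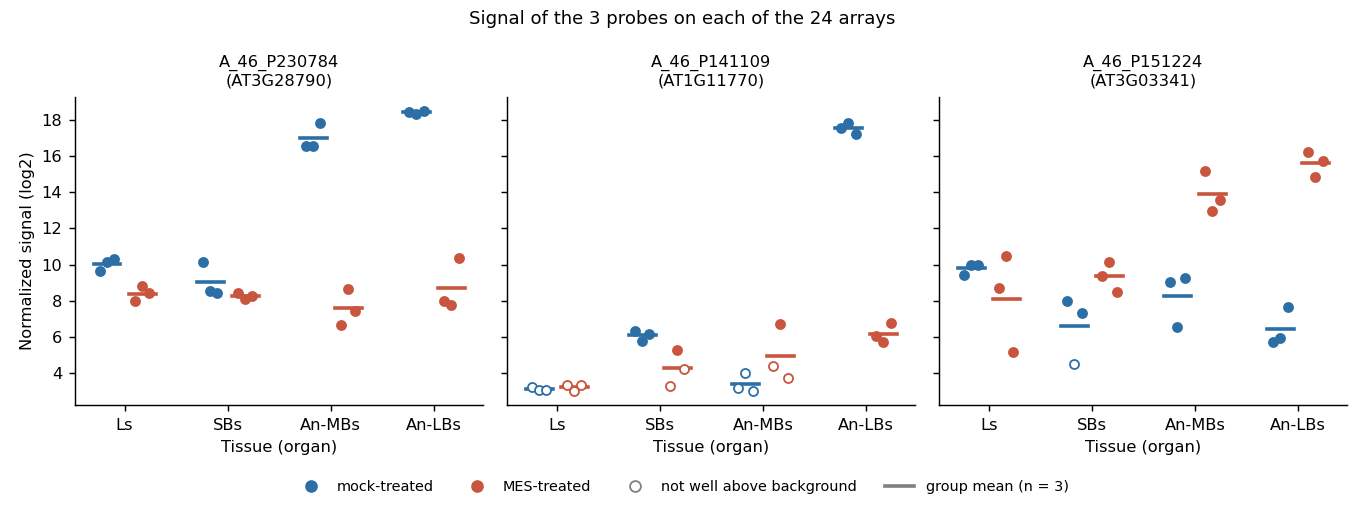
Normalized signal (log2) of the 3 probes on each of the 24 arrays, by tissue (organ) on the x axis, with mock-treated arrays in blue, MES-treated arrays in red, open points where the probe was not well above background, and a bar at the mean of the 3 replicates. A_46_P230784 was at 16.54 or more on all mock-treated anther arrays, A_46_P141109 was at 17.19 or more only on the mock-treated An-LBs arrays, and A_46_P151224 was at 12.95 or more only on the MES-treated anther arrays.

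Outside the anther, A_46_P230784 fell in MES-treated Ls. All 3 MES arrays of Ls, at most 8.79, lay below all 3 mock arrays, at least 9.67. The difference was -1.65 (standard error 0.28, 95% interval -2.34 to -0.96, adjusted p = 0.0372 from limma), a 3.14-fold lower signal. It was the only one of the 2 members tested in Ls to be called, where 4.82% of 32491 probes were called and the groups of 37.5% did not overlap. The call did not hold when mock replicate 1, 2 or 3 was left out (adjusted p = 0.131, 0.144 and 0.112) or MES replicate 1 (adjusted p = 0.127), and with all 24 arrays in 1 fit (adjusted p = 0.0589). Over all alternatives the adjusted p ran from 0.0228 to 0.144, and with an array left out the difference stayed between -1.85 and -1.44.

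In SBs the levels of A_46_P230784 were closer together. Mock replicate 1, at 10.13, stood above mock replicates 2 and 3, at 8.56 and 8.44, and the 3 MES arrays reached up to 8.41, only 0.03 below the nearest mock array. The difference of -0.78 (95% interval -1.87 to 0.31, adjusted p = 0.381) did not pass the threshold. Without mock replicate 1 it was -0.24, so most of the difference came with that array. Between the organs, mock-treated SBs minus Ls was -0.999 (adjusted p = 0.120), and -1.54 without SBs replicate 1 (adjusted p = 0.00608), which was then called, while the adjusted p went up to 0.287 in other fits. In MES-treated plants SBs and Ls differed by -0.13 (95% interval -0.75 to 0.50, adjusted p = 0.740). The MES effect in SBs minus that in Ls was 0.87 (95% interval -0.90 to 2.65, adjusted p = 0.603).

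A further 6 probes of the paper's list carry the same match, AT3G28790, and 11 more are annotated as DUF1216 proteins with matches AT3G28780, AT3G28840, AT3G28980, AT5G48575 and AT5G61720. The study chose that list as changed on these arrays, so the counts of its probes in anthers describe it only. Its comparisons included Ls and SBs, so the counts there are not independent of the list either. In An-LBs 17 of these 17 probes were called lower in MES-treated plants, where 11.9% of all probes were. Their median difference was -9.79, or -9.78 with probes below background set at their bound, against 0.24 over all probes tested. In An-MBs 14 could be tested and 13 were called lower, where 2.86% of all probes were, with a median of -10.33, or -9.46 at the bounds, against -0.04 over all probes. Of these 14, 10 were below background on all MES arrays and entered through the mock group alone, which fixes their direction, and in An-LBs this held for 4 of the 17.

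The exception was A_46_P300230, a probe of AT3G28790 whose signal moved much less between organs. In mock-treated plants its means were 7.18 for Ls, 6.21 for SBs, 8.76 for An-MBs and 9.38 for An-LBs. Its MES difference was -2.23 at the An-MBs stage and -3.50 at the An-LBs stage. A much larger difference was that of A_46_P132554, also of AT3G28790. It had a mean of 17.24 in mock-treated An-MBs and was not well above background on any MES-treated An-MBs array, a difference of at least 5286-fold. In An-LBs, where it was well above background on all arrays, its difference was -9.78. A_46_P138694 (AT3G28980) was at least 6537-fold lower in An-MBs, and A_46_P012636 (AT5G48575) at least 3457-fold.

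The DUF1216 probes did not all start at the same stage. In mock-treated An-MBs, A_46_P211444 (AT5G61720) was well above background on 1 of 3 arrays with a mean of 3.71, and in mock-treated An-LBs it was at 14.19. A_46_P136849, of the same match, was already at 13.83 in mock-treated An-MBs and at 17.24 in An-LBs. Among the 7 probes of AT3G28790, A_46_P132549 followed A_46_P230784 most closely, with 9.82 in Ls and 8.58 in SBs of mock-treated plants. Both probes, and A_46_P309345, were designed on the same transcript contig, so they are not independent readings.

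In Ls, 4 of the 17 DUF1216 probes were above background often enough to be tested, and 1 was called lower, where 4.82% of all probes were called in either direction. This was A_46_P309345 of AT3G28790, with a difference of -2.23 (adjusted p = 0.0299), which was designed on the contig of A_46_P230784. The third probe of that contig, A_46_P132549, differed by -1.21 (adjusted p = 0.102), and A_46_P300230 by -0.34 (adjusted p = 0.308). In SBs, where 4.13% of all probes were called, limma called 0 of 4, with 1 at an unadjusted p under 0.05, and the methods' t-test after adjustment also called 0. The probe with that p was A_46_P138694 (AT3G28980), which was higher in MES-treated SBs by 1.12 (adjusted p = 0.0999).

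**Figure D2:**
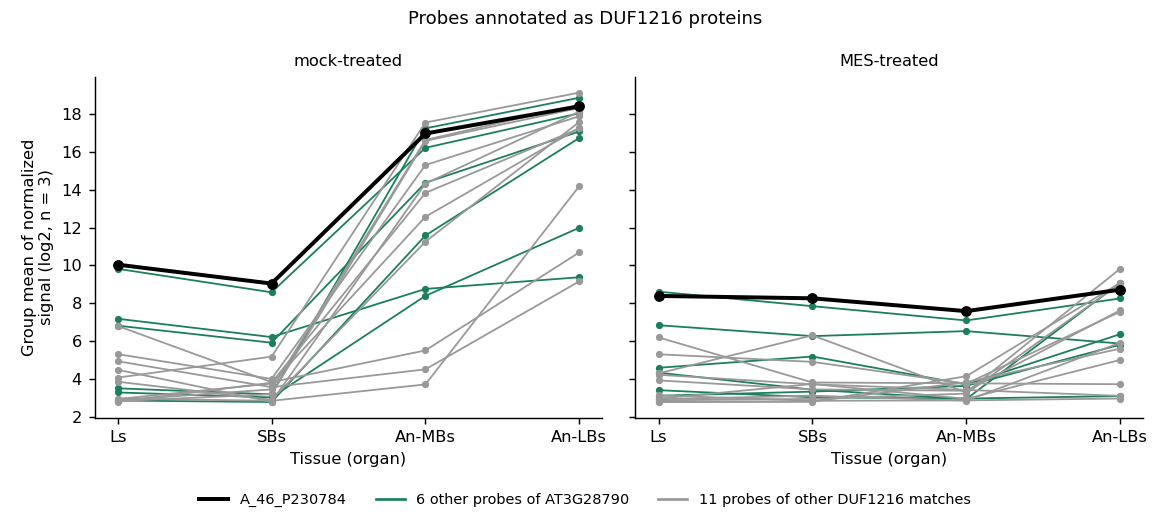
Group means (log2, n = 3 arrays) of A_46_P230784 in black, of the 6 other probes matched to AT3G28790 in green and of 11 probes of other DUF1216 matches in grey, by tissue (organ), with mock-treated plants on the left and MES-treated plants on the right. A_46_P230784 went from 9.04 in SBs to 16.97 in An-MBs in mock-treated plants and stayed between 7.59 and 8.72 in MES-treated plants, and all 17 other probes were lower in MES-treated An-LBs.

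A_46_P141109 (AT1G11770, Berberine family) was high in a narrower window. On the mock-treated An-LBs arrays it was at 17.55, 17.79 and 17.19. On the mock-treated An-MBs arrays it was at 3.16, 4.01 and 3.01 and not well above background on any of them. Mean levels in mock-treated plants spanned 14.38 on the log2 scale, and the An-LBs signal was at least 7696-fold above that of An-MBs and at least 3271-fold above that of Ls. The mock-treated Ls arrays read 3.25, 3.07 and 3.07 and the MES-treated ones 3.34, 3.04 and 3.36, below background throughout, so no MES difference in Ls was tested.

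Small buds had a weak signal of this probe. It was at 6.34, 5.80 and 6.18 on the mock-treated SBs arrays and well above background on all 3. In mock-treated plants SBs were higher than Ls by 2.98 on the fitted scale. The probe entered this comparison through SBs alone, which fixes its direction, so no p is given. Since Ls were below background, the difference is given as at least 1.21-fold. Of the 3 members, 2 were called between mock-treated SBs and Ls, where 36.6% of all probes were, and the same 2 did not overlap, as held for 65.5% of all probes. Of the 2, A_46_P141109 is given as a description only, and its bound lies under the 2-fold of a call. The mock-treated groups did not show a steady rise, since the signal was at least 2.84-fold lower in An-MBs than in SBs and then highest in An-LBs. SBs are whole buds and An-MBs dissected anthers, so this cannot be read as an order of anther stages.

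In MES-treated An-LBs the levels of A_46_P141109 were 6.07, 5.73 and 6.75, still well above background on all 3 arrays. The MES difference was -11.33, or 2570-fold lower, with a gap of 10.44 between the nearest arrays. The remaining level in MES-treated An-LBs lay beside that of mock-treated SBs, with means of 6.18 and 6.11 and overlapping arrays.

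In MES-treated An-MBs this probe was at 4.40, 6.69 and 3.72, and only replicate 2 was well above background. Replicate 2 is the array that stood apart from its group. The fitted difference from mock-treated An-MBs was 1.55, and 0.67 without MES replicate 2 or 2.16 without MES replicate 3. The arrays of both treatments overlapped and all but this one were below background, so no fold is given.

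In SBs the probe was at 3.29, 5.27 and 4.24 in MES-treated plants, with only replicate 2 well above background. All 3 values lay below the lowest mock array, at 5.80. The difference of -1.84 (standard error 0.49, 95% interval -3.01 to -0.67, adjusted p = 0.0873) missed the threshold, with an unadjusted p of 0.00798 from limma. Without MES replicate 2 it was -2.34. The probe then entered through the mock arrays alone, which fixes its direction, so no p is given for that fit. In other fits the adjusted p went up to 0.264. With normexp background correction the difference was -0.60. LAP6, which makes a precursor of the outer pollen wall in the tapetum, was at 16.06, 16.24 and 15.19 in mock-treated SBs and 6.01, 12.01 and 10.34 in MES-treated SBs (adjusted p = 0.0608). Its part in the difference of A_46_P141109 was not tested.

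Limma called 0 of the 3 members in SBs, where 4.13% of 33935 probes were called, and 2 of the 3 had an unadjusted p under 0.05. The methods' t-test also called 0, with or without adjustment. In all 3 members the MES arrays of SBs did not overlap with the mock arrays, which held for 28.4% of all probes.

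No other probe of the paper's list carries the match AT1G11770. The only other Berberine family probe there, A_46_P035676 (AT1G30740), had a signal in every organ. Its means in mock-treated plants were 10.73 for Ls, 8.94 for SBs, 10.12 for An-MBs and 14.33 for An-LBs. In MES-treated An-LBs it was at 10.94, a difference of -3.39. In Ls and SBs its MES differences were 0.13 (adjusted p = 0.902) and 0.54 (adjusted p = 0.450). The size of the MES difference in An-LBs was thus unequal between these 2 probes of the family, each read on its own scale.

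A_46_P151224 (AT3G03341) had the opposite pattern, low in mock-treated anthers and high in MES-treated ones. The array's own description of the probe, as the paper lists it, names another Arabidopsis locus, AT5g17460, so the match is not unique. Mock-treated Ls were at 9.43, 9.96 and 9.96 and SBs at 7.96, 4.54 and 7.35. The mock-treated An-MBs arrays read 9.02, 6.57 and 9.24, and the An-LBs arrays 5.71, 5.94 and 7.64. The value of 4.54 in SBs was the only one of the 24 not well above background. Ls were highest and closest together in mock-treated plants, with an SD of 0.30 against 1.06 to 1.82 in the other 3 organs. SBs, An-MBs and An-LBs overlapped with each other, so no order among them can be given.

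The step from Ls to SBs was tested in mock-treated plants. It was -3.17 (standard error 0.87, 95% interval -5.27 to -1.07, adjusted p = 0.0217), an 8.99-fold lower signal in SBs without overlap. Without SBs replicate 2, the array below background, it was -2.13, and without SBs replicate 1 it was -3.84. It was lost without Ls replicate 2 or 3 (adjusted p = 0.0579 and 0.0550) and in the methods' t-test after adjustment (adjusted p = 0.0750), and the adjusted p was as low as 0.00282 in other fits. In MES-treated plants limma called 0 of the 2 members tested between SBs and Ls, where 23.9% of all probes were called, and 0 had an unadjusted p under 0.05. Neither member was free of overlap there, while 49.3% of all probes were. The methods' t-test also called 0. For A_46_P151224 the difference there was 1.23 (95% interval -1.93 to 4.39, adjusted p = 0.508), and without Ls MES replicate 3 it was -0.23.

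In MES-treated anthers A_46_P151224 was at 15.17, 12.95 and 13.56 in An-MBs and at 16.21, 14.84 and 15.72 in An-LBs. The MES difference was 5.62 in An-MBs, 49.1-fold higher, with a gap of 3.71 between the nearest arrays. In An-LBs it was 9.16, or 571-fold higher, with a gap of 7.19. The value in An-MBs was 4.76 without mock replicate 2 and 4.98 without MES replicate 1, and that in An-LBs was 9.76 without mock replicate 3. Both sets of MES arrays overlapped with each other, and the mean of An-LBs minus that of An-MBs was 1.70, while in mock-treated plants it was -1.84.

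In SBs the levels of MES-treated plants were 9.39, 10.16 and 8.47, all above the highest mock array at 7.96. The difference of 2.73 (standard error 0.93, 95% interval 0.50 to 4.96, adjusted p = 0.154 from limma) did not pass the threshold, with an unadjusted p of 0.0238. Without mock replicate 2, the array below background, it was 1.69. Over the fits with an array left out the adjusted p ran from 0.162 to 0.308.

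In Ls the MES arrays of this probe were the most scattered of all its groups. They were at 8.69, 10.47 and 5.19, so that replicate 2 lay above every mock array and replicate 3 far below them. The difference of -1.67 (95% interval -4.75 to 1.41, adjusted p = 0.412) was smaller than this spread. Without MES replicate 3 it was -0.21, and without MES replicate 2 it was -2.85.

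Whether the MES effect of a member differed between SBs and Ls was tested itself. For A_46_P151224 the effect in SBs minus that in Ls was 4.40 (standard error 1.55, 95% interval 1.14 to 7.66, adjusted p = 0.117). For A_46_P141109 the fitted value was -1.95, and -0.45 with normexp background correction. This probe was below background on all Ls arrays, so its value is a description and no p is given. Limma called 0 of the 3 members in this contrast, where 3.51% of 37833 probes were called. An unadjusted p under 0.05 was found for 2, and A_46_P141109, given as a description only, was among them. Without Ls MES replicate 2 the value of A_46_P151224 was 5.57 (adjusted p = 0.0299), which was called, and the adjusted p went up to 0.303 in other fits.

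**Figure D3:**
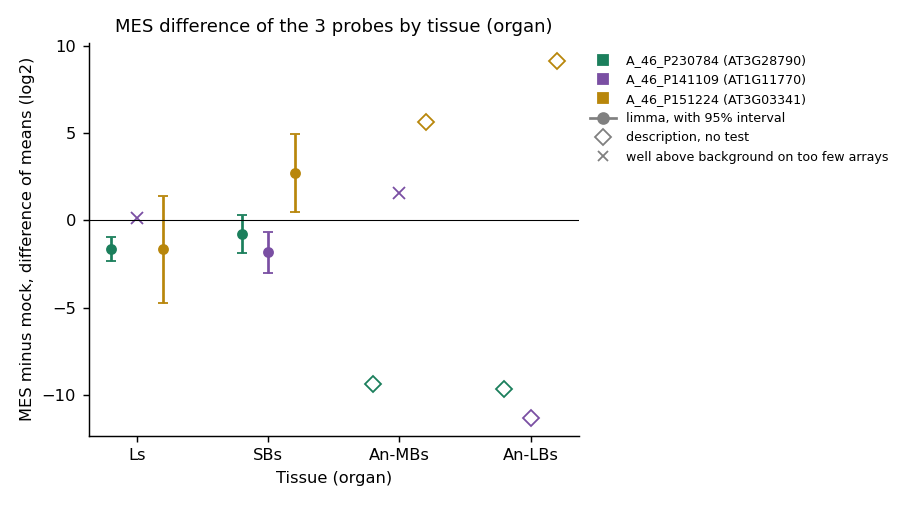
Difference of group means, MES-treated minus mock-treated (log2), of the 3 probes by tissue (organ), with filled points and 95% intervals of limma in Ls and SBs, open diamonds for the anther values that are given without a test, and crosses where too few arrays were well above background. In Ls and SBs the differences lay between -1.84 and 2.73, and in An-LBs they were -9.69, -11.33 and 9.16.

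Summed signals of pollen and photosynthetic marker probes also differed between the treatments in anthers. The summed signal of the 9 pollen probes, genes of pollen and pollen tube walls such as VGD1, PPME1, PGA4 and AT59 together with the pollen phosphatase PTEN1, was 20.57, 20.57 and 20.47 in mock-treated An-LBs. In MES-treated An-LBs it was 9.95, 9.78 and 11.31, with 9 of 9 probes called lower, where 11.9% of all probes were, and 5 of 9 below background on all 3 MES arrays, among them PGA4, AT59 and PTEN1. For An-MBs the sum was 15.20, 15.93 and 17.50 on the mock-treated arrays and 8.14, 8.36 and 7.80 on the MES-treated ones, and 5 of the 9 probes were tested and called lower, where 2.86% of all probes were. Of these 5, 3 were above background in the mock group alone, which fixes their direction. The 2 AT59 probes were below background on all mock-treated An-MBs arrays, and PTEN1 was above it on 1, so the sum there came from other probes of the list.

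Arrays within a group differed in the same markers. Replicate 3 had the highest pollen sum of mock-treated An-MBs, and it also had the highest level of A_46_P230784, at 17.81. Replicate 3 of MES-treated An-LBs had the highest pollen sum of its group, at 11.31, and the highest levels of A_46_P230784, at 10.36, and of A_46_P141109, at 6.75. In MES-treated An-MBs replicate 2 had the highest pollen sum, at 8.36, and the highest A_46_P230784, at 8.66. Mock-treated An-LBs went the other way, as replicate 3 had the lowest pollen sum, at 20.47, but the highest A_46_P230784, at 18.49. The tapetum gene LAP6 was at 11.51, 4.80 and 3.91 in mock-treated An-MBs and at 9.11, 5.95 and 9.44 in MES-treated An-MBs. In An-LBs it was at 8.28, 8.73 and 7.70 in mock-treated plants, and below background on all 3 MES arrays.

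The sum of the 7 photosynthetic probes was higher in MES-treated anthers. It lay between 15.53 and 15.72 in mock-treated and between 16.77 and 17.09 in MES-treated An-LBs, with 5 probes called higher, where 17.3% of all probes were, and 1, PSAO, lower. In An-MBs it lay between 15.64 and 16.34 and between 17.08 and 17.27, with 2 called higher, where 4.24% of all probes were. In Ls, where the sum was highest, A_46_P151224 was at 5.19 to 10.47, below all MES-treated anther arrays. The part of either marker list in the differences of the 3 members was not tested.

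**Figure D4:**
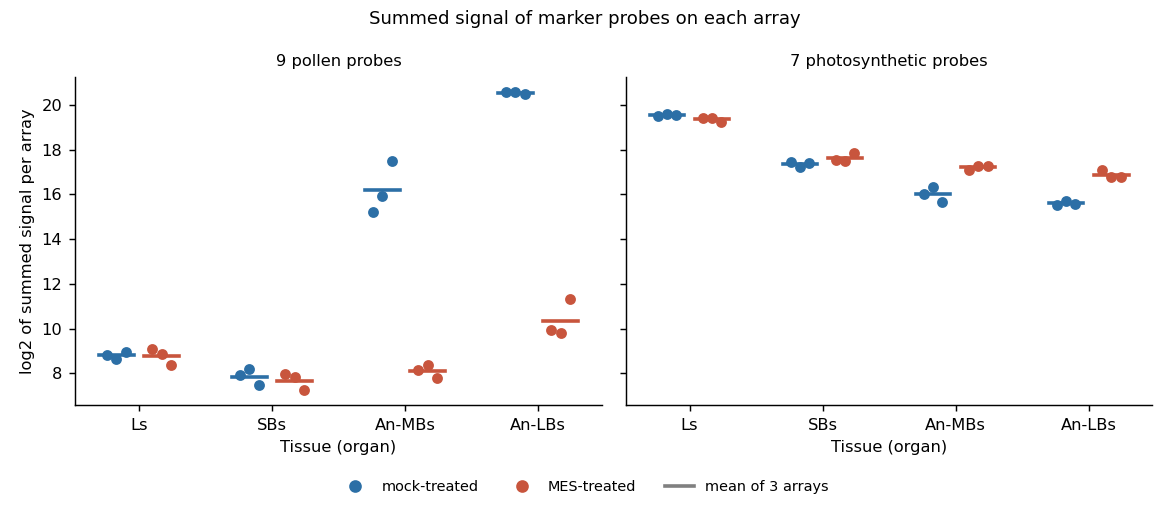
Summed signal (log2) of 9 pollen probes, left, and 7 photosynthetic probes, right, on each array by tissue (organ), with mock-treated arrays in blue, MES-treated arrays in red and a bar at the mean of 3 arrays. In An-LBs the pollen sum was 20.47 or more in mock-treated and 11.31 or less in MES-treated plants, and the photosynthetic sum was at most 15.72 in mock-treated and at least 16.77 in MES-treated plants.

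The probes with the most similar profiles were sought among 36414 probes well above background on all arrays of at least 1 group. Likeness was the root mean square difference of the 8 group means after each profile was centred on its own mean. For A_46_P230784 the nearest was A_46_P132549 of the same match and contig, at 0.27 on the log2 scale. Of the 5 nearest, A_46_P003016 (AT5G44300, a dormancy/auxin associated protein) was the only other one with a name, at 0.71. There were 24 probes within 1 log2 unit of this profile, and the median distance over all probes was 4.09. When arrays were aligned at the 75th percentile instead of by quantiles, 2 of the 5 nearest probes were the same.

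For A_46_P141109 the 5 nearest probes lay at 0.71 to 0.91, and none has a name in the paper's list. The nearest, A_46_P364865, was at 15.96 in mock-treated An-LBs, 2.75 in mock-treated An-MBs and 4.61 in MES-treated An-LBs. A_46_P048536 also had the weak signal in mock-treated SBs, at 6.11. It was at 17.43 in mock-treated An-LBs.

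For A_46_P151224 fewer probes were alike, with 2 within 1 log2 unit. A_46_P151229, which has no name in the paper's list, was at 0.60, with mean levels of 8.09 in mock-treated and 14.04 in MES-treated An-MBs and of 7.12 and 15.93 in An-LBs. Next came A_46_P010711 (AT5G10770, an aspartyl protease) at 0.98, with An-LBs means of 9.66 under mock and 15.94 under MES treatment. XTH24 (A_46_P154974, AT4G30270), an enzyme of the xyloglucan endotransglucosylase/hydrolase family that remodels cell walls, was at 1.20, and its An-LBs means were 9.77 under mock and 16.04 under MES treatment. A_46_P119384 (AT4G35680), a protein of unknown function with the domain DUF241, was at 1.22. For A_46_P141109 and for A_46_P151224, 5 of the 5 nearest probes were the same with arrays aligned at the 75th percentile.

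**Figure D5:**
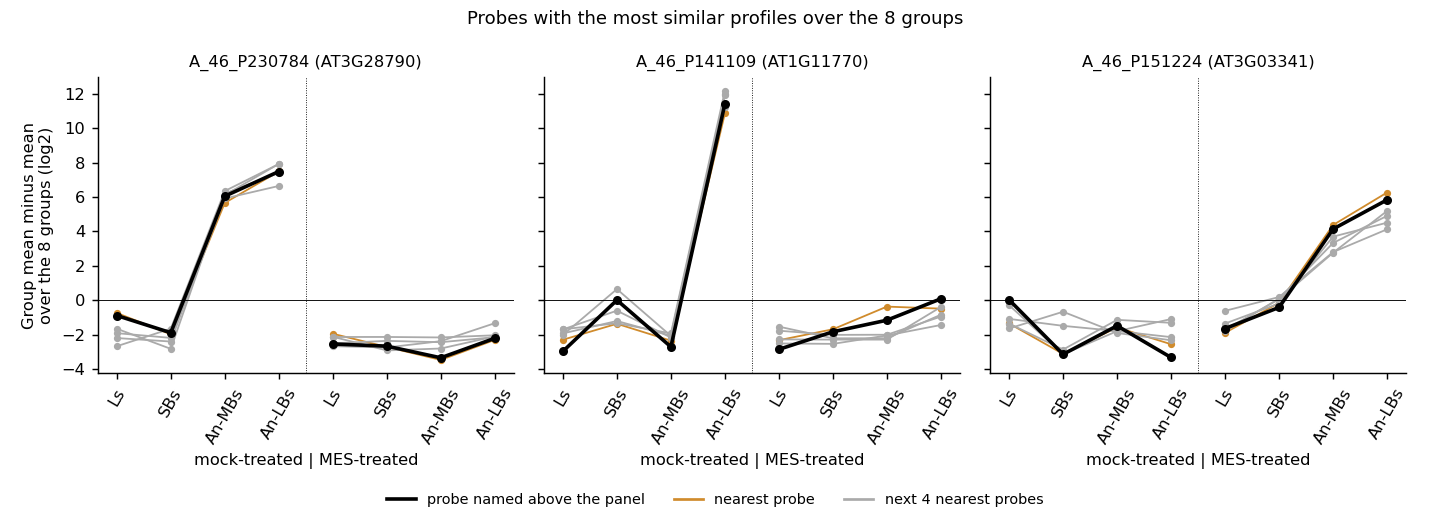
Group means minus the mean over the 8 groups (log2) for each of the 3 probes in black, its nearest probe in orange and the next 4 in grey, with the 4 mock-treated groups left and the 4 MES-treated groups right of the dotted line. The nearest probes lay at a root mean square difference of 0.27 for A_46_P230784, 0.71 for A_46_P141109 and 0.60 for A_46_P151224.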

How the data were processed

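Transcripts were measured with one-colour (Cy3) Agilent Brassica arrays. The intensity of each spot was produced by the authors with Feature Extraction (version 10.7.3.1 per the file headers, 9.1 per the labels), which corrected each array for background and for spatial trends. The authors also deposited log2 values that had been normalized by quantiles in GeneSpring. Here 1417 control spots were left out, the spots of 50 probes with several were averaged, and log2 intensities were normalized by quantiles over the 24 arrays. For the 3 members the result differed from the authors' table by at most 0.0018.

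Comparisons were fitted on the 6 arrays concerned with limma (version 3.58.1, in R 4.3.3), two-sided, over probes well above background on at least 3 arrays. Spots marked as outliers, 3 to 68 probes per array, had no weight. The interaction used all 24 arrays. Where a probe was below background on every array of a group, the change was given as at least so many fold, against the lowest signal well above background on each array or the probe's own if higher.

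Members and lists were chosen with earlier results of these data known. Named probes were the 3 members, other probes of the paper's list with the same match, DUF1216 or Berberine annotation, and the 5 nearest profiles. Names come from that list. Deviations of equally numbered mock and MES arrays from their group means were compared over 27364 probes well above background on all arrays. They correlated in Ls at 0.145, 0.252 and 0.429 and in SBs at -0.0664, 0.233 and 0.390. The main fits did not pair the arrays, and fits with the replicate as a block were run beside them. The names deposited with replicates 1 and 2 of mock-treated An-MBs share a sample number, but their values were not identical (root mean square difference 0.548, against 0.423 and 0.682 to replicate 3). The number of arrays limits the precision of every value.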

Additional observations from a re-analysis of the deposited data

How the results depend on the processing

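The fall of A_46_P230784 in Ls was no longer called without a filter on dim probes, in the methods' t-test with or without adjustment, or with all 24 arrays in 1 fit (each -1.65). Slide as a random block (-1.68) and scan date as a block (-1.61) were run only within that fit of 24 arrays, which had lost the call without them. With an array left out it ran from -1.85 to -1.44. The probes called in Ls numbered 1567, against 798 without the filter, 3639 with 1 fit of all arrays, 3608 and 3239 with slide or scan date in that fit, and 56 and 317 in the t-test with and without adjustment. In SBs the count was 1401, against 915 without the filter, 811 with the replicate block, and 30 and 266 in the t-test. The replicate block changed no call of a member in any comparison, and in Ls, where equally numbered arrays correlated, A_46_P230784 kept -1.65 (adjusted p = 0.0354). With an array left out, between 3 and 4193 probes were called for Ls and between 42 and 1165 for SBs.

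Between mock-treated SBs and Ls, normexp, which compresses dim signals, left a difference of 0.74 for A_46_P141109, under 2-fold. The call of A_46_P151224 (-3.17) was lost in both forms of the t-test, and the count of 12341 was 5527 in its unadjusted form. With an array left out A_46_P151224 ran from -3.84 to -2.13, and A_46_P230784 from -1.54 to -0.70. Between MES-treated SBs and Ls the small difference of A_46_P230784 turned to 0.20 when arrays were aligned at the 75th percentile, ran from -0.33 to 0.07 with an array left out, and was 0.075 without Ls MES replicate 2. That of A_46_P151224 ran from -0.23 to 2.41. The count of 8085 was 1603 in the unadjusted t-test and ran from 4267 to 10238. For the difference of effects, 1329 probes were called, and 482 to 2704 with an array left out, where A_46_P151224 ran from 2.94 to 5.57. In SBs, A_46_P141109 ran from -2.34 to -1.35.

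The anther differences kept their direction in all settings run. With an array left out, A_46_P230784 ran from -9.92 to -8.93 in An-MBs and from -10.51 to -9.22 in An-LBs, A_46_P141109 from 0.67 to 2.16 and from -11.61 to -11.10, and A_46_P151224 from 4.76 to 6.10 and from 8.79 to 9.76. In An-LBs the shift to the 75th percentile gave -10.71 for A_46_P230784 and -11.94 for A_46_P141109, while the median of all probes went from 0.24 to 0.14. Normexp gave -10.20 for A_46_P141109 and 8.11 for A_46_P151224. The t-test at its own threshold and the averaging of mock-treated An-MBs replicates 1 and 2 were chosen after seeing the data. The cause of these changes was not tested. Signals below background, as those of A_46_P141109 in Ls and in mock-treated An-MBs, limit its ratios with these groups to bounds. Its MES ratio in An-LBs is a point value that rests on a dim MES signal, at 5.73 to 6.75.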
